A study of Mus musculus with 60 samples.

Results

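The genes described here encode collagens, laminins, nidogens, fibulins, fibronectin and the integrin receptors that bind them. They were taken by gene symbol from 10 deposited tables on the mouse hippocampus. The symbol rule found 78 of the 13986 genes that any table holds, and 70 of these are in every table. Of the 78, 75 belong to the named families. The other 3, Col4a3bp (a ceramide transfer protein), Itgb1bp1 and Itgb3bp (proteins named for binding an integrin tail), match by symbol only and are counted but not read as matrix genes. Some members are held in fewer tables: Col28a1 and Col4a3 in 1, Itga2b in 5, Col13a1, Col24a1, Col4a4 and Col8a1 in 8, and Col14a1 in 9.

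The mice were wild type C57BL/6 at postnatal day 105. Homecage mice were the reference, and the remaining groups had been through Handling, Restraint or Swim 45 minutes earlier. Poly(A)-enriched RNA of whole, dorsal and ventral hippocampus was sequenced in 60 libraries, which form 12 groups of 5. The tables hold the mean of each group and the authors' own test of 2 groups, but no value per library, so the replicate error enters only through their p-values. Each treatment was set against the Homecage group of its region in 9 tables, and ventral against dorsal hippocampus of Homecage mice in 1. The 3 treatment tables of a region share their Homecage libraries, and the regional table shares them too, so these comparisons are not independent of each other. Group means sum to 19.9 M to 25.0 M estimated counts (M for 1e+06), and the tables hold no gene whose 2 group means sum to less than 22.0.

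Basement membranes are thin sheets in which a collagen IV network and a laminin network are joined by nidogens and perlecan. In the brain they surround the blood vessels and lie under the pia. Fibroblasts of the meninges and cells of vessel walls are among the cells that make fibrillar collagens, collagen VI and fibulins. Integrins are receptors of an alpha and a beta chain that hold cells to these sheets, and in the hippocampus some of them also act at synapses. Ventral and dorsal hippocampus differ in inputs and in gene expression, and the design asks whether short stress changes either part.

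Collagen genes often lie in pairs, and the promoters of 2 pairs described below are shown. Col4a1 and Col4a2, the main collagen IV chains, are transcribed away from each other on chromosome 8 from starts 21 bases apart. Col6a1 and Col6a2, chains of collagen VI, lie on 1 strand of chromosome 10 with starts 102.5 kb apart. The windows below are RefSeq promoters on GRCm38.p6, 250 bases before to 50 after the start, written 5′ to 3′ on the gene's strand. Capitals mark CCAAT and GGGCGG on either strand (ATTGG and CCGCCC on the reverse one). The Col4a1 window is chr8:11312777-11313076 on the minus strand, that of Col4a2 chr8:11312555-11312854 on the plus strand, that of Col6a1 chr10:76725995-76726294 and that of Col6a2 chr10:76623355-76623654, both on the minus strand.
Col4a1: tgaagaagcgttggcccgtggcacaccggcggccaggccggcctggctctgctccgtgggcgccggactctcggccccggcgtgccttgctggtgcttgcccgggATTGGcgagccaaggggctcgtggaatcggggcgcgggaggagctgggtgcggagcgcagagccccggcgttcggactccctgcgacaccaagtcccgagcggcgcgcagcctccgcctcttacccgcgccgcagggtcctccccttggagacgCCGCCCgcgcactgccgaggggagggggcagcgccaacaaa
Col4a2: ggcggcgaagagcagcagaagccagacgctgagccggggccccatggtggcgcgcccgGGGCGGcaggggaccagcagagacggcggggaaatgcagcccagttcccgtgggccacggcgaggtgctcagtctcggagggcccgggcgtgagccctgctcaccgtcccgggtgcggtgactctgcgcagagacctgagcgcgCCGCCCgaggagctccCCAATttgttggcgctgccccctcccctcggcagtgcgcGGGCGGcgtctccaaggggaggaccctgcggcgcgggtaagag
Col6a1: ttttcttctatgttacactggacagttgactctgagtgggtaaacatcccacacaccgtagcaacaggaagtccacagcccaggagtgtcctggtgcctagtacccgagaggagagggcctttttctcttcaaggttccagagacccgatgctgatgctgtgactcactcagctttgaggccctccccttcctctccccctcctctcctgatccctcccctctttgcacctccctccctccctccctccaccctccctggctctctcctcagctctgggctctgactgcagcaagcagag
Col6a2: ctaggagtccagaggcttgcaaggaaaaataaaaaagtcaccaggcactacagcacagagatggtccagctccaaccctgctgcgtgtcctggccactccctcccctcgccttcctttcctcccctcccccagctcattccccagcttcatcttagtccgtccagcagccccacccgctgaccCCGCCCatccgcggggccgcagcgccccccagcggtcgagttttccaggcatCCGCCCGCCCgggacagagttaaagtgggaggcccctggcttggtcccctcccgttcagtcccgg
The windows of Col4a1 and Col4a2 share 78 bases. CCAAT was found in both of them and in neither collagen VI window, and GGGCGG in all but that of Col6a1. Over 32851 RefSeq promoter windows of this length, 37.4% hold CCAAT and 35.7% GGGCGG. Of the 61 windows of the 55 members that have one, 27.9% hold CCAAT and 57.4% GGGCGG. A match is a description of these letters and not of a bound site.

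Levels were compared between genes only per length, as RPKM of the Homecage group means (estimated counts per kilobase of all exons, scaled as CPM below). The median member stood at 0.901 RPKM in whole, 0.918 in dorsal and 1.04 in ventral hippocampus. Col4a2 led in whole hippocampus with 12.9 RPKM and in dorsal hippocampus with 16.8 RPKM. In ventral hippocampus Col6a1 led with 17.6 RPKM, ahead of Col4a2 at 14.7 RPKM and of Itgb1, the beta chain shared by most matrix-binding integrins, at 12.3 RPKM. Dorsal Col6a1 stood at 2.79 RPKM. Without values per library, neighbours in this order cannot be called different.

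Among laminins, which assemble as an alpha, a beta and a gamma chain, Lamb1, Lamb2 and Lamc1 were the most abundant, with 5.34, 5.06 and 5.43 RPKM in dorsal and 4.85, 4.83 and 5.26 RPKM in ventral Homecage mice. Every alpha chain was lower. Lama5, an alpha chain of vessel basement membranes, stood at 1.45 RPKM in dorsal and 1.14 RPKM in ventral hippocampus. Lama2, the alpha chain of astrocyte endfoot laminin, stood at 1.18 and 1.19 RPKM. The chains of interstitial collagen I were low, with 0.854 RPKM for Col1a1 and 0.672 RPKM for Col1a2 in dorsal hippocampus.

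The comparison with the most calls among these genes was that of ventral with dorsal hippocampus of undisturbed mice. Of 76 members held in that table, 44 passed an adjusted p of 0.05 in the authors' deposited table, 29 of them higher and 15 lower in ventral hippocampus. That is 57.9% of the members, where 38.4% of all 13754 genes passed, 2532 of them higher (18.4% of all) and 2751 lower. The share was 57.1% against 38.0% among genes held in every table. The median log2 fold change of the members was 0.17 and that of all genes −0.01, and the median size without sign was 0.35 against 0.16. Fold changes of every table followed the GC content of transcripts (their share of G and C) across genes, so each count was also taken with that trend subtracted. For the regional table, 40 members were then called, 29 higher and 11 lower (background 32.2%), and 38 of these are among the 44. In bulk tissue, fewer cells of a type and less RNA per cell cannot be told apart.

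**Figure D1:**
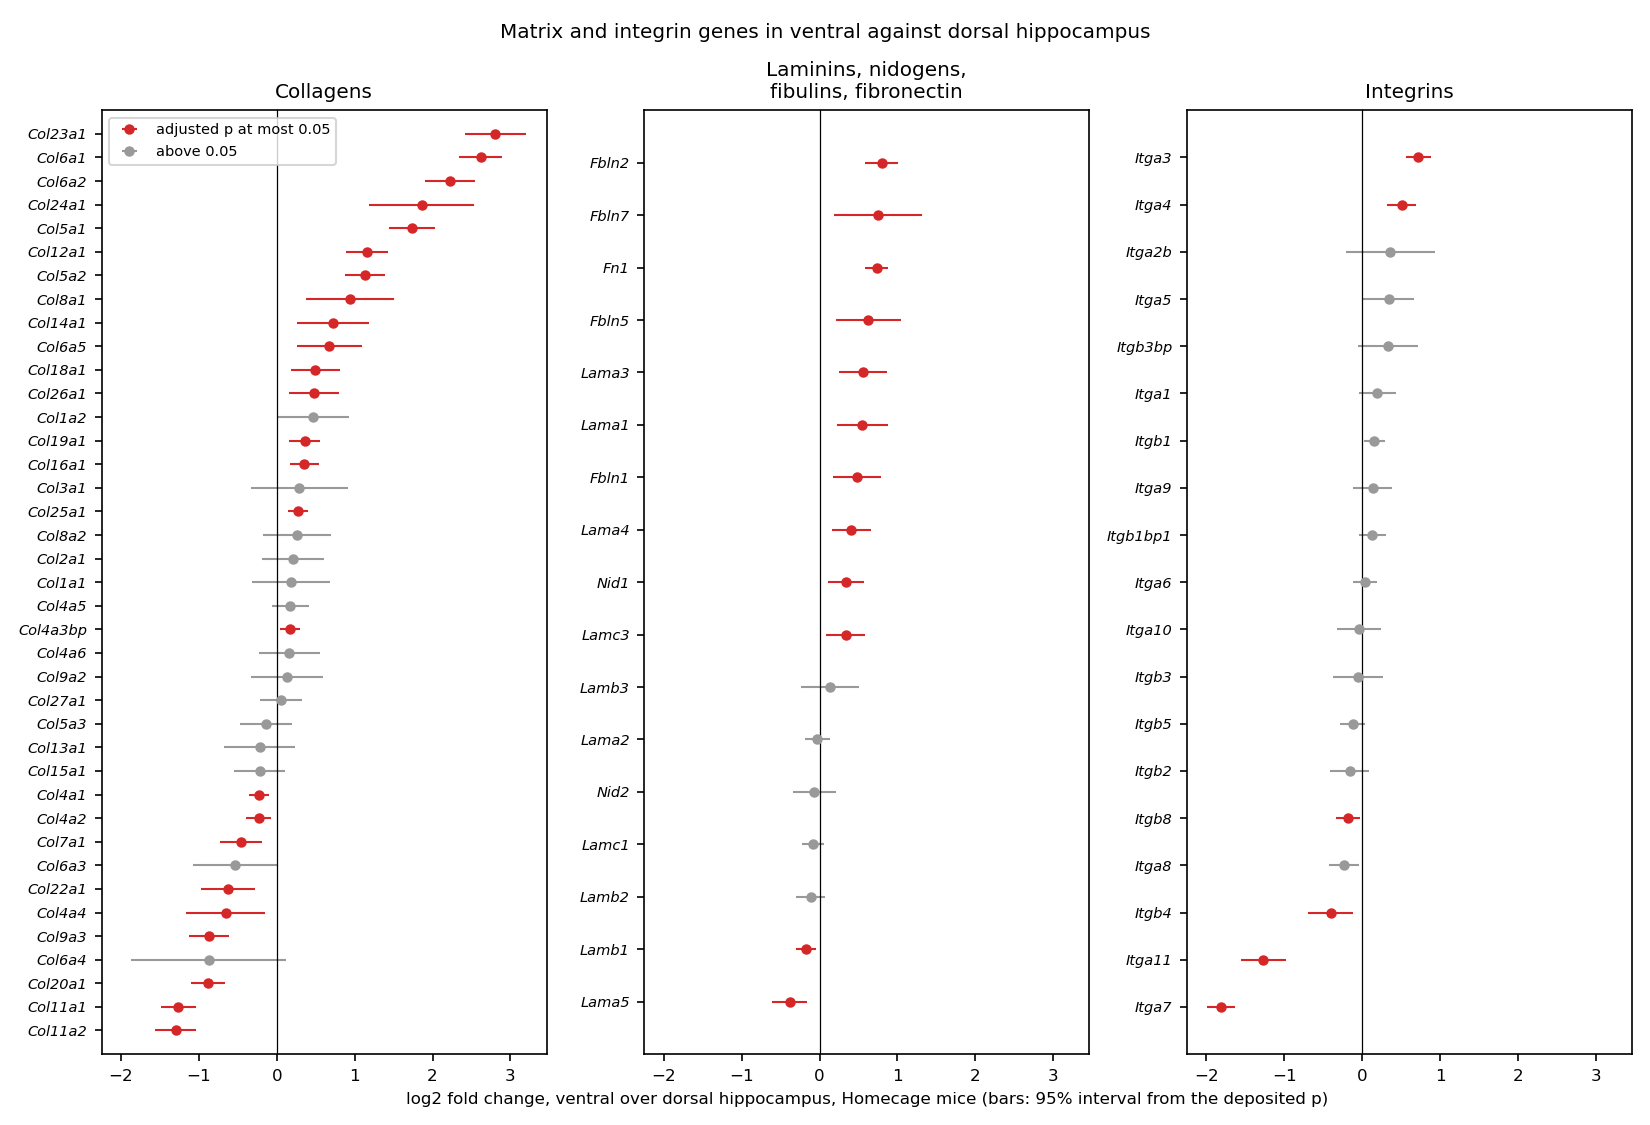
Deposited log2 fold change (x axis) of collagen (left), laminin, nidogen, fibulin and fibronectin (middle) and integrin genes (right), ventral over dorsal hippocampus of Homecage mice, with a 95% interval derived from the deposited p. Red points passed an adjusted p of 0.05. Col23a1 at 2.81 and Col6a1 at 2.62 lie farthest to the right and Itga7 at −1.81 farthest to the left.

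Collagen VI, which forms beaded filaments between basement membranes and the matrix around them, had 3 of 5 measured chains higher in ventral hippocampus and none lower. Col6a1 had 12.2 CPM (a gene's share of the group total of counts, times 1e+06) in dorsal and 76.9 CPM in ventral Homecage mice. In the authors' deposited table its log2 fold change was 2.62 ± 0.14 (SE derived from the p-value, 5 libraries per group), with an adjusted p of 2.35e-73. Its neighbour Col6a2 went from 4.32 to 20.9 CPM, and the authors' deposited table gives 2.23 ± 0.16. The 4 ventral group means of Col6a1, 76.9 to 84.5 CPM, all lay above the 4 dorsal ones, 10.7 to 12.2 CPM, and whole hippocampus lay between them with 42.5 to 51.0 CPM. Not every gene did so in Homecage mice. Of the 44 members called between regions, 30 (68.2%) had a whole level between both parts, beside 68.1% of all called genes. In whole hippocampus 13 lay below both parts and 1 above, and Col4a1 was among the 13 with 63.3 CPM. Col6a3, the third chain of the classical molecule, had −0.54 ± 0.28 with an adjusted p of 0.111 in the authors' deposited table, from 5.55 to 3.97 CPM. The estimates for the chains of this molecule did not share a direction.

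Col23a1, a transmembrane collagen, had the highest fold change of the family. It stood at 4.14 CPM in dorsal and 30.0 CPM in ventral Homecage mice, and its deposited log2 fold change in the authors' deposited table was 2.81 ± 0.20, with an adjusted p of 9.85e-42. Col25a1, a neuronal transmembrane collagen that associates with amyloid deposits, was abundant in both regions, with 76.6 CPM in dorsal and 95.3 CPM in ventral mice (0.27 ± 0.07 in the authors' deposited table).

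Of the 3 chains of collagen V, which starts and limits the width of collagen fibrils, Col5a1 and Col5a2 were higher in ventral hippocampus, while Col11a1 and Col11a2 of its close relative collagen XI were lower. Col5a1 went from 10.9 to 37.0 CPM, with 1.74 ± 0.15 in the authors' deposited table, and Col5a2 from 7.38 to 16.6 CPM, with 1.13 ± 0.13. Col5a3 did not pass, with −0.14 ± 0.17 and an adjusted p of 0.551 in the authors' deposited table. Col11a1 went from 35.2 to 15.1 CPM, with −1.26 ± 0.11 in the authors' deposited table, and Col11a2 from 46.2 to 19.2 CPM, with −1.30 ± 0.14. Col24a1, a rare fibrillar collagen, was also higher, with 0.642 CPM in dorsal and 2.38 CPM in ventral mice. The chains of collagens I and III did not pass: the authors' deposited table gives 0.19 ± 0.26 for Col1a1, 0.47 ± 0.23 for Col1a2 and 0.29 ± 0.32 for Col3a1. In all, 3 of 11 fibrillar chains were higher and 2 lower.

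Of 8 FACIT collagens, which sit on the surface of fibrils, 4 were higher and 3 lower in ventral hippocampus. Col12a1 was the highest of them with 1.16 ± 0.14 in the authors' deposited table, from 7.97 to 18.2 CPM. Col20a1, at −0.88 ± 0.11, and Col9a3, at −0.87 ± 0.13 in the authors' deposited table, were the lowest.

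The core of the basement membrane differed less. Col4a1 stood at 84.4 CPM in dorsal and 73.9 CPM in ventral Homecage mice, and Col4a2 at 111 and 97.5 CPM. The authors' deposited table gives −0.23 ± 0.06 for Col4a1 and −0.23 ± 0.08 for Col4a2. Both are past the threshold, and neither remains so once the trend of fold change on GC content is subtracted, where Col4a1 is at −0.13 and Col4a2 at 0.03. Col4a4, a minor collagen IV chain, was lower too, from 1.19 to 0.784 CPM. Of the nidogens, which link collagen IV to laminin, Nid1 was higher (0.34 ± 0.12 in the authors' deposited table), and Nid2 had −0.07 ± 0.14.

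Among 11 laminin chains, 5 were higher and 2 lower in ventral hippocampus. Lama3, an alpha chain of epithelial laminin, was higher with 0.56 ± 0.16, and the beta chain Lamb3 had 0.13 ± 0.19 and no call in the authors' deposited table. Lamc1, the gamma chain of most laminins, had −0.08 ± 0.07 in the authors' deposited table and did not pass. The alpha chain Lama4 of endothelial basement membranes was higher, with 0.41 ± 0.13 in the authors' deposited table. Lama5 and Lamb1 were lower, with −0.38 ± 0.12 and −0.18 ± 0.07 in the authors' deposited table. With the GC trend subtracted Lamb1 is still called and Lama5 is not.

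All 4 fibulins, glycoproteins of elastic fibres and basement membranes, were higher in ventral hippocampus, with deposited log2 fold changes of 0.48 to 0.80. Fbln2 led them, from 8.99 to 16.2 CPM. Fn1, which encodes the fibronectin that integrins assemble into fibrils, went from 75.5 to 130 CPM, and the authors' deposited table gives 0.73 ± 0.08 with an adjusted p of 8.20e-20.

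The integrin receptors for laminin moved apart. Itga7, the alpha chain of the laminin receptor of muscle and of some neurons, had the lowest p of all members. It stood at 57.6 CPM in dorsal and 16.8 CPM in ventral Homecage mice, and the authors' deposited table gives −1.81 ± 0.09, with an adjusted p of 8.68e-87. Itga3, a laminin receptor chain of epithelia and neurons, was higher, from 13.5 to 22.9 CPM (0.72 ± 0.08 in the authors' deposited table). Itga6, the third of the laminin-binding chains, had 0.04 ± 0.08 in the authors' deposited table.

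Of the other alpha chains, Itga11, a collagen receptor, was lower with −1.27 ± 0.15, and Itga4, a receptor for fibronectin and VCAM-1, was higher with 0.50 ± 0.10 in the authors' deposited table. Itga8 had −0.24 ± 0.10 and an adjusted p of 0.05001 in the authors' deposited table, just outside the threshold. None of the 6 beta chains was higher, and Itgb4 and Itgb8 were lower, with −0.41 ± 0.15 and −0.19 ± 0.08 in the authors' deposited table. With the GC trend subtracted Itga8 is called and Itgb4 is not. Itgb1, with 44.1 CPM in dorsal and 50.4 CPM in ventral mice, did not pass.

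Markers of other cell types differed between the regions as well, in a comparison where 38.4% of all genes passed. Of 12 markers of meningeal fibroblasts, 10 were higher and 1 was lower in ventral hippocampus in the authors' deposited table, with a median log2 fold change of 0.74, and Dcn, the decorin gene, went from 6.85 to 84.8 CPM. Their summed level was 120 to 162 CPM in the 4 dorsal groups and 210 to 256 CPM in the 4 ventral groups, and none of the markers was at 0. Dcn is a large part of that difference: the sums in Homecage mice were 126 CPM in dorsal and 256 CPM in ventral hippocampus. The 162 CPM is that of dorsal Restraint. Igf2 stood at 60.5 CPM there and 65.0 CPM in ventral Handling, and at 29.2 to 43.6 CPM in the other 10 groups. Slc13a4 had 10.4 and 11.6 CPM in these groups, against 3.81 to 8.22 CPM in the others. No other marker of the list was above the other 10 groups in both. Slc6a13, Slc22a6 and Aldh1a2 were lower in dorsal Restraint than in any other group. Of 10 mural cell markers 3 were higher, and of 10 endothelial markers 1, with medians of 0.23 and 0.00. Markers of oligodendrocytes were lower, 8 of 8, and so were those of hippocampal neurons, 9 of 10. Of 8 thalamus markers 5 were higher and 1 lower. The part of these cell types in the differences of the matrix genes was not tested.

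Other genes of the matrix pathway did not lean 1 way in the regional comparison of the authors' deposited table, where 38.4% of all genes passed. Of 13 other basement membrane components 4 were higher and 2 lower. Of 19 matrix glycoproteins and proteoglycans 6 were higher and 6 lower, of 15 genes of collagen modification 3 and 4, and of 16 proteases and inhibitors 7 and 4. Of 13 adaptors and kinases of integrin adhesion 3 were higher and 3 lower. Timp2, an inhibitor of matrix metalloproteinases, had 1.90, Ctgf, a matricellular integrin ligand, had 2.13, and Bmp1, the protease that cuts the carboxyl end of procollagens, had −1.03 in the authors' deposited table. The perineuronal net core protein Acan had −1.31 in the authors' deposited table.

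The treated groups share no library with the Homecage groups, so the regional difference could be read again in their group means, without a test. Of the 41 members called in Homecage mice and held in all treated groups, 34 (82.9%) kept the direction in Handling, Restraint and Swim, as did 81.3% of all called genes. The log2 ratio of ventral to dorsal CPM of Col6a1 was 2.81, 2.98 and 2.81 after Handling, Restraint and Swim. That of Itga7 was −1.61, −1.50 and −1.48. Col4a1 and Col4a2 had the opposite sign to Homecage in all 3 treatments, with 0.05 to 0.18 for Col4a1 and 0.18 to 0.23 for Col4a2. These ratios are without subtraction of the GC trend, under which neither gene was called between regions in Homecage mice. Of the 72 members held in all 8 dorsal and ventral groups, 42 (58.3%) had ventral and dorsal group means that did not overlap, 32 with ventral above and 10 with dorsal above. Among all genes 46.4% did not overlap, 27.4% with ventral above and 19.0% with dorsal above.

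**Figure D2:**
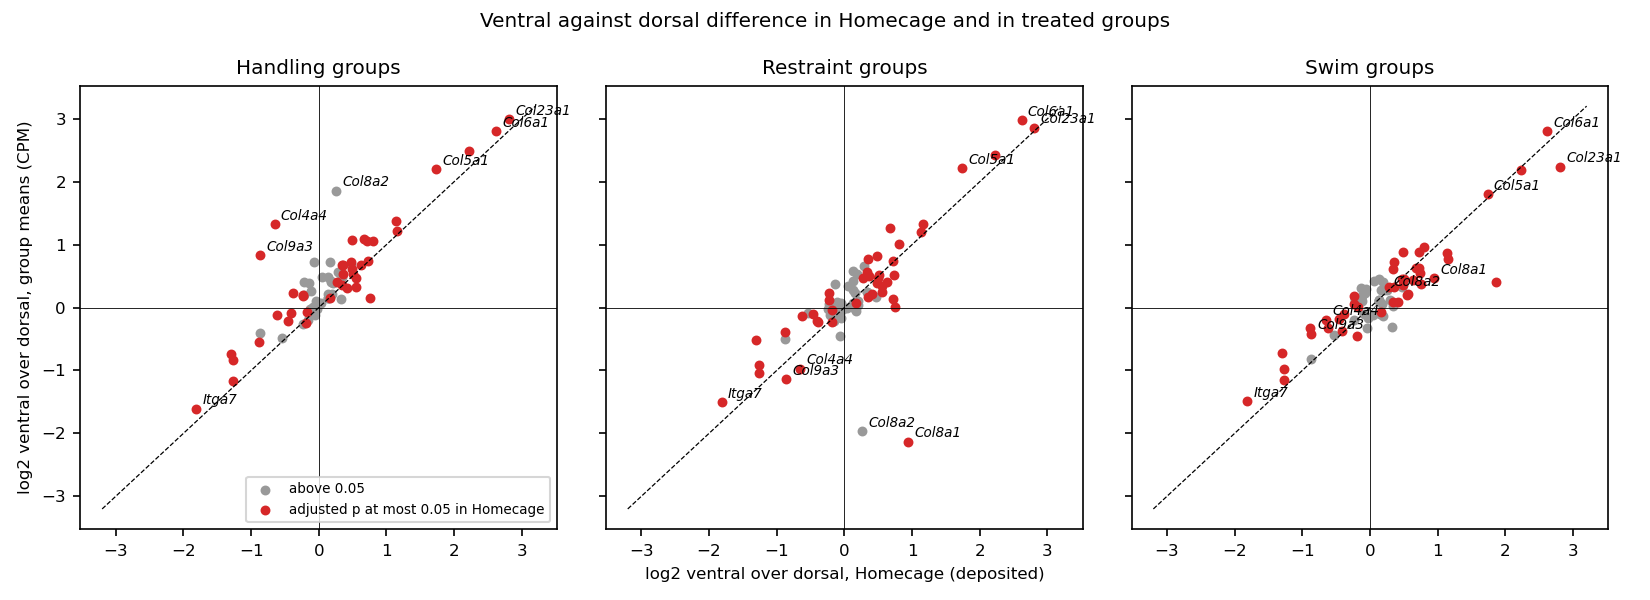
Log2 ratio of ventral to dorsal level of the genes in the Handling, Restraint and Swim groups (y axis, CPM of group means) against the deposited log2 fold change in Homecage mice (x axis). The dashed line marks equal values. Col6a1 stays near 2.8 to 3.0 on the y axis, Col4a4 at 1.33 and Col9a3 at 0.84 cross to positive values after Handling, and Col8a1 falls to −2.13 after Restraint.

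Whole hippocampus gave no call for any member. In the authors' deposited tables there were 0 calls among 74 members after Handling, 0 among 74 after Restraint and 0 among 73 after Swim, where 0.395%, 0.541% and 0.395% of all genes passed. With an unadjusted p under 0.05 the authors' test had 4, 7 and 6 members. These are 5.41%, 9.46% and 8.22% of the members, beside 5.06%, 3.92% and 5.20% of all genes. Col22a1, a collagen of tissue junctions, had the lowest p after Handling with −0.49 ± 0.17 and an adjusted p of 0.433 in the authors' deposited table. Col1a2 had the lowest p after Restraint, with 0.41 ± 0.13 and an adjusted p of 0.229, and Col8a2 after Swim, with 0.74 ± 0.27 and an adjusted p of 0.588 in the authors' deposited tables. Medians were −0.08, −0.01 and −0.07 for members and −0.01, −0.00 and 0.00 for all genes.

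Dorsal hippocampus gave 0 of 72 calls after Handling (background 0.125%) and 0 of 75 after Swim (background 0.447%) in the authors' deposited tables, with 7 and 13 members at an unadjusted p under 0.05. These are 9.72% and 17.3% of the members, beside 2.84% and 11.2% of all genes. After Handling, 56 of the 72 members had a fold change below 0, and 22.2% were above 0, against 46.9% of all genes. Their median was −0.12 and that of all genes −0.01. With the GC trend subtracted 54 of the 72 were below 0 and the median was −0.08. Col20a1 after Swim came nearest to a call, at −0.43 ± 0.12 with an adjusted p of 0.0569 in the authors' deposited table.

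After Restraint 2 of 74 members passed in dorsal hippocampus, where 0.616% of all genes did. Among genes held in every comparison, 1 of 70 members passed (1.43%), where 0.567% of all did. Col8a1, a short-chain collagen of endothelial and epithelial sheets, went from 0.77 CPM in Homecage to 5.55 CPM, and the authors' deposited table gives 2.85 ± 0.74 with an adjusted p of 0.0270. Col11a2 fell from 46.2 to 34.3 CPM, with −0.42 ± 0.10 and an adjusted p of 0.0159 in the authors' deposited table. With the GC trend subtracted Col11a2 is at −0.14 with an adjusted p of 1.00, and Col8a1 is still called (background then 0.485%). Col8a2, the partner of Col8a1, had 2.05 ± 0.63 and an adjusted p of 0.112 in the authors' deposited table.

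**Figure D3:**
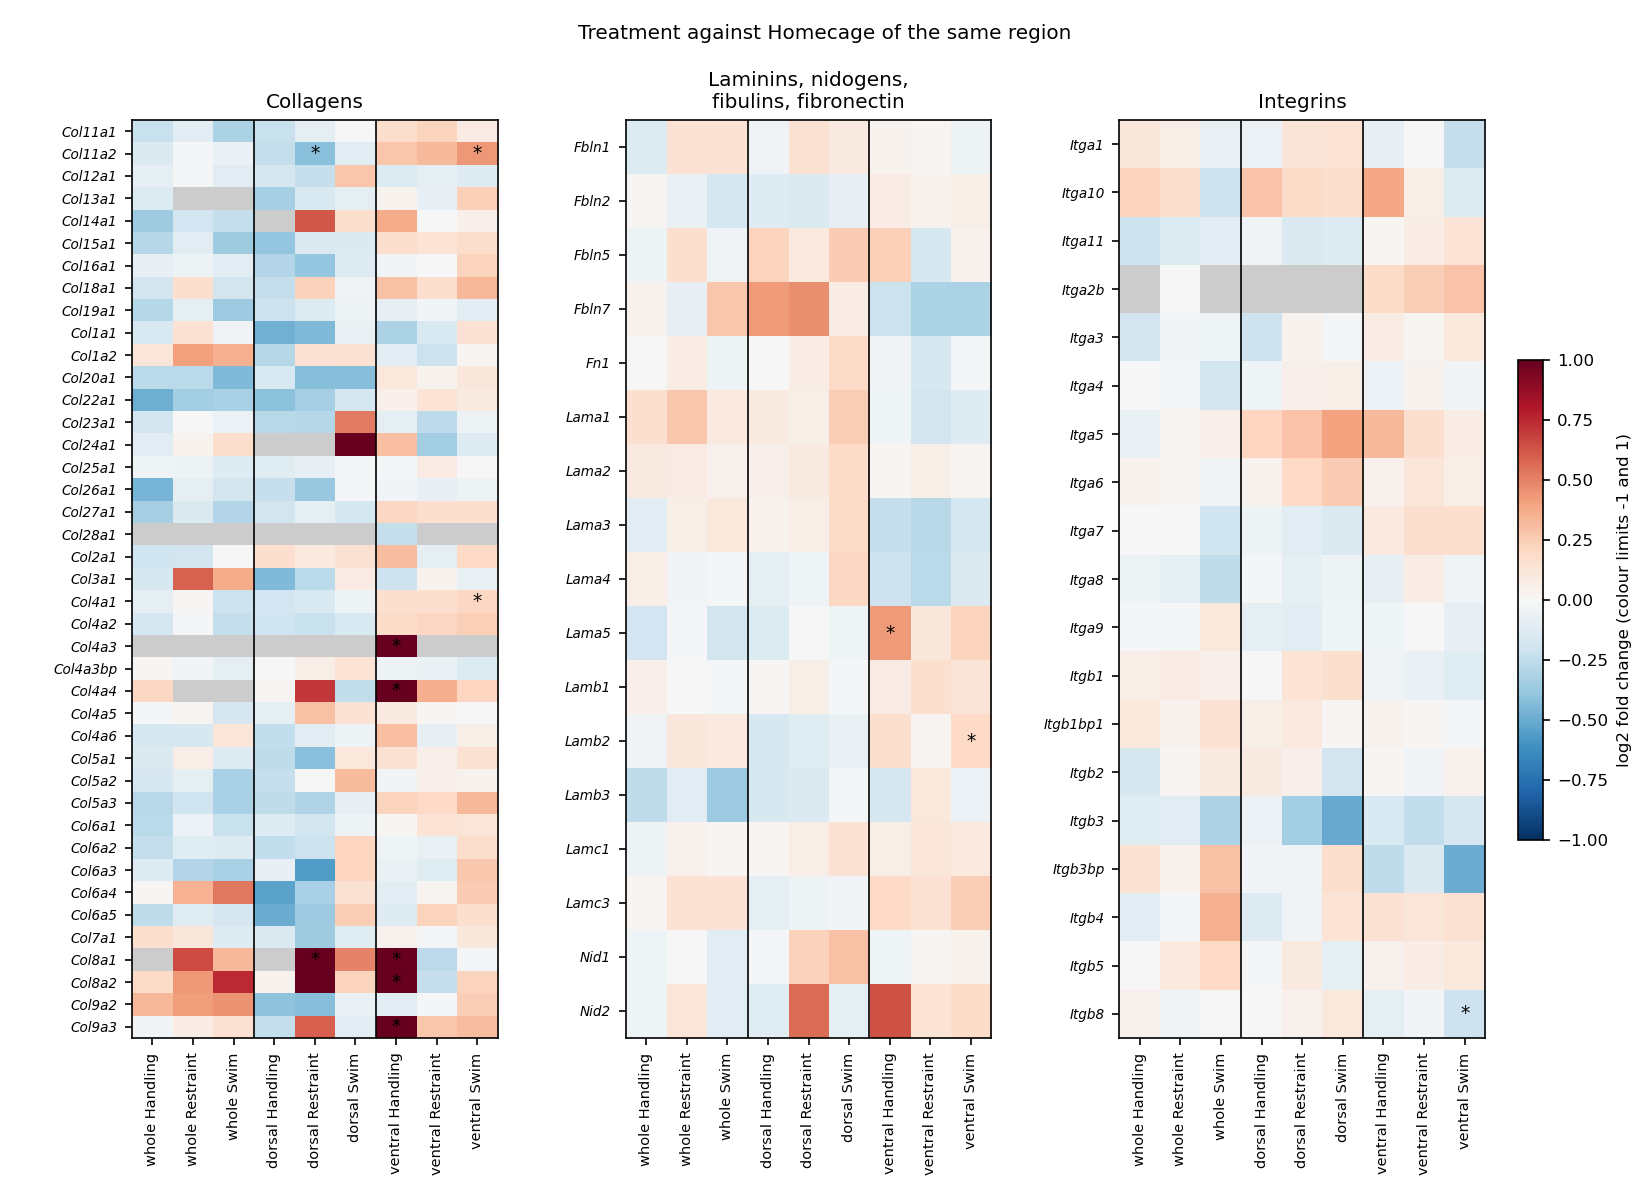
Deposited log2 fold change of the genes (rows) in the 9 comparisons of a treatment with the Homecage group of the same region (columns), from blue (lower) to red (higher), with colours ending at −1 and 1 and grey where the table does not hold the gene. Stars mark an adjusted p of at most 0.05: 6 in ventral Handling, 4 in ventral Swim and 2 in dorsal Restraint.

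Ventral hippocampus after Handling held 6 calls of 78 members, all higher, where 0.856% of all genes were called and 0.813% called higher. Among genes held in every comparison, 3 of 70 members were called (4.29%), where 0.724% of all were. With group means summing to at least 100, 4 of 69 were called (background 0.806%). Col4a3 is held in this comparison only, and Col4a4 and Col8a1 in 8, so being held depends in part on their level here. Col8a1 went from 1.55 to 7.02 CPM, with 2.18 ± 0.44 and an adjusted p of 2.03e-04 in the authors' deposited table. Col4a4 went from 0.784 to 3.08 CPM and Col4a3, which lies beside it with a start 72 bases away, from 0.544 to 2.29 CPM. The authors' deposited table gives 1.98 ± 0.37 for Col4a4 and 2.03 ± 0.48 for Col4a3. These 2 chains are part of the collagen IV of kidney and lung filters and of other specialised epithelia.

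The other calls were Col9a3, a chain of collagen IX, Col8a2 and Lama5. Col9a3 went from 7.17 to 19.5 CPM, with 1.43 ± 0.27 and an adjusted p of 7.08e-05 in the authors' deposited table. Col8a2 went from 2.38 to 7.36 CPM, with 1.61 ± 0.44, and Lama5 from 13.0 to 17.6 CPM, with 0.43 ± 0.12 in the authors' deposited table. With the GC trend subtracted 4 of the 6 are called (background 0.676%), while Col8a2 had an adjusted p of 0.0616 and Lama5 of 0.147. Nid2 was next in order and did not pass, with 0.63 ± 0.21 and an adjusted p of 0.158 in the authors' deposited table.

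Markers of the choroid plexus, the secretory epithelium of the ventricles, moved with these genes. All 14 markers were called higher in ventral hippocampus after Handling in the authors' deposited table, with a median log2 fold change of 3.33, and 5 of the 10 held were called higher in dorsal hippocampus after Restraint, with a median of 2.49. Of the 14, 8 are held in every group. Slc4a5 and Kcne2 are held in 2 groups, Kcnj13 and Aqp1 in 4, Folr1 in 6 and Otx2 in 9. Such markers are held in part through their level here, so the 14 calls and both medians depend on that. Ttr, the transthyretin gene of that tissue, stood at 1168 CPM in ventral Handling and 1229 CPM in dorsal Restraint, and between 16.4 and 89.5 CPM in the other 10 groups. The summed level of the 8 markers held in every group was 2065 and 2164 CPM in these 2 groups and 198 to 345 CPM in the others, where none of the 8 was at 0. The part of choroid plexus tissue in these calls was not tested.

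The same 2 groups had the highest levels of several members. Of 74 members held in both and in another group, 6 (8.11%) were above every other group in both, where 1.47% of all genes were: Col4a4, Col4a5, Col8a1, Col8a2, Col9a3 and Nid2. Col4a4 and Col8a1 are held in 8 of the other 10 groups. Col8a2 stood at 7.36 and 7.85 CPM in them and at 1.48 to 2.76 CPM in the others. Col9a3 stood at 19.5 and 19.0 CPM against 7.17 to 12.7 CPM. The margin of Col4a5 was small, with 6.27 and 6.17 CPM against 4.02 to 5.92 CPM. It was not called against Homecage in ventral Handling or dorsal Restraint. Lama5 did not follow this order: its dorsal Homecage level of 16.5 CPM was above the 16.4 CPM of dorsal Restraint.

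**Figure D4:**
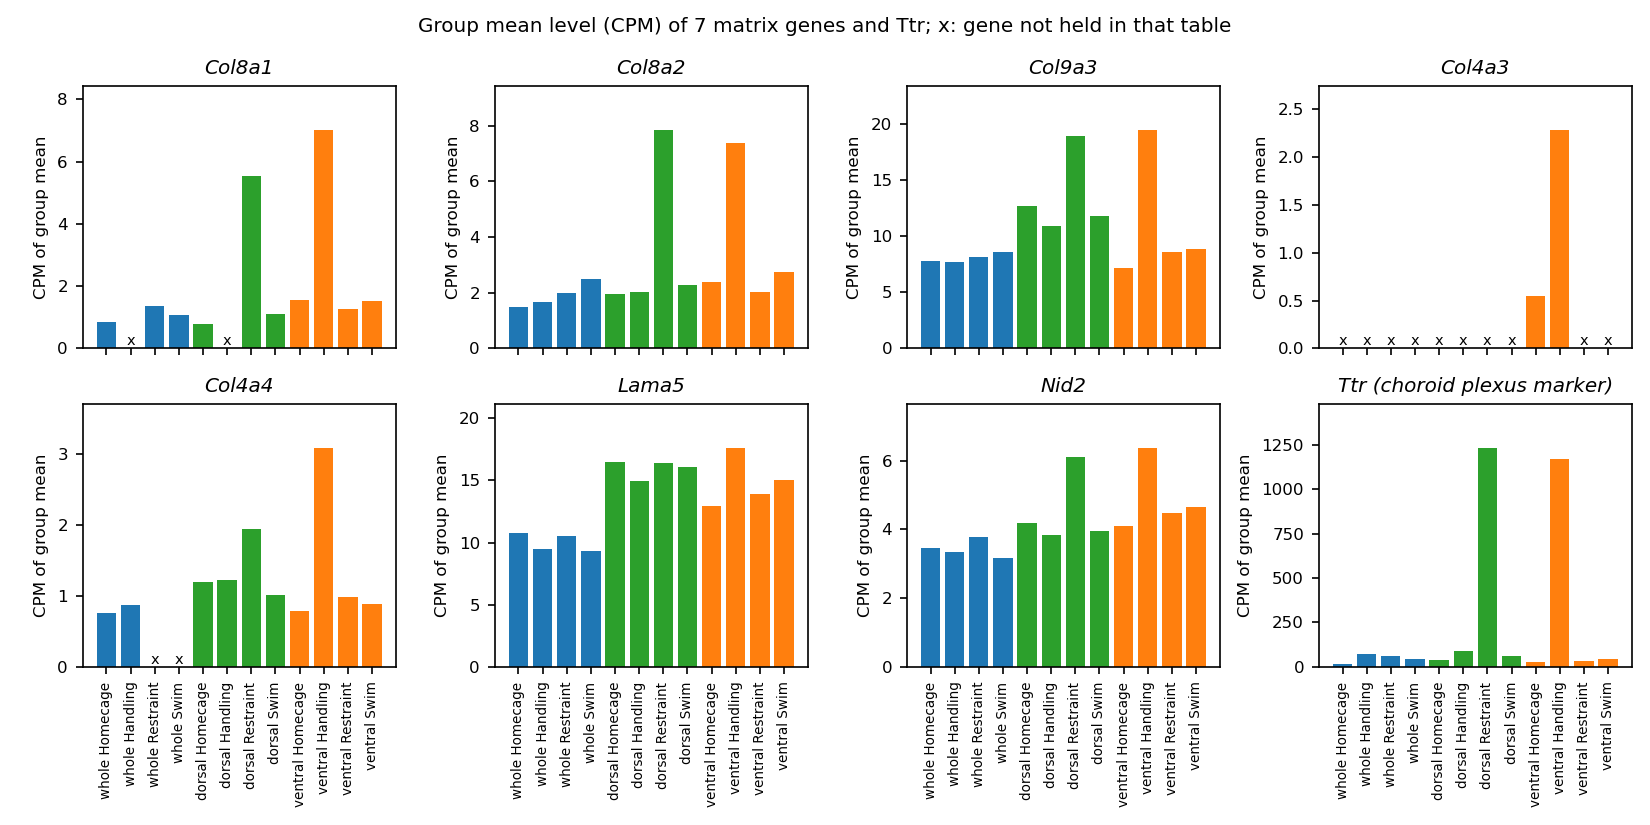
CPM of the group mean of 7 matrix genes and of the choroid plexus marker Ttr in the 12 groups, coloured by region, with an x where the table does not hold the gene; bars carry no error, since values per library are not used here. Ttr reaches 1168 and 1229 CPM in ventral Handling and dorsal Restraint, and Col8a1 is highest there with 7.02 and 5.55 CPM.

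Ventral hippocampus after Restraint had 1 call among 76 members, where 2.39% of all genes were called. With the GC trend subtracted there was also 1 call (background then 1.73%). Of the 12 meningeal fibroblast markers, Slc13a4 was lower after ventral Restraint and the other 11 did not pass, with a list median of −0.42 in the authors' deposited table.

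After Swim 4 of 76 members passed in ventral hippocampus (5.26%), where 6.94% of all genes did. Col11a2 was higher with 0.44 ± 0.12, Col4a1 with 0.21 ± 0.07 and Lamb2, the beta chain of vessel and synaptic laminins, with 0.20 ± 0.07, while Itgb8, whose receptor activates TGF-beta, was lower with −0.20 ± 0.07 in the authors' deposited table. None of the 4 is called with the GC trend subtracted, where 1.03% of all genes are called. The fold changes of that table followed GC content, with a rank correlation of 0.67 across all genes and 0.69 across the members. In dorsal Swim the correlation was −0.58 across all genes and −0.50 across members. These correlations are across genes of the same libraries, which are not independent. The members have a median GC content of 53.1%, against 50.9% for all genes.

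**Figure D5:**
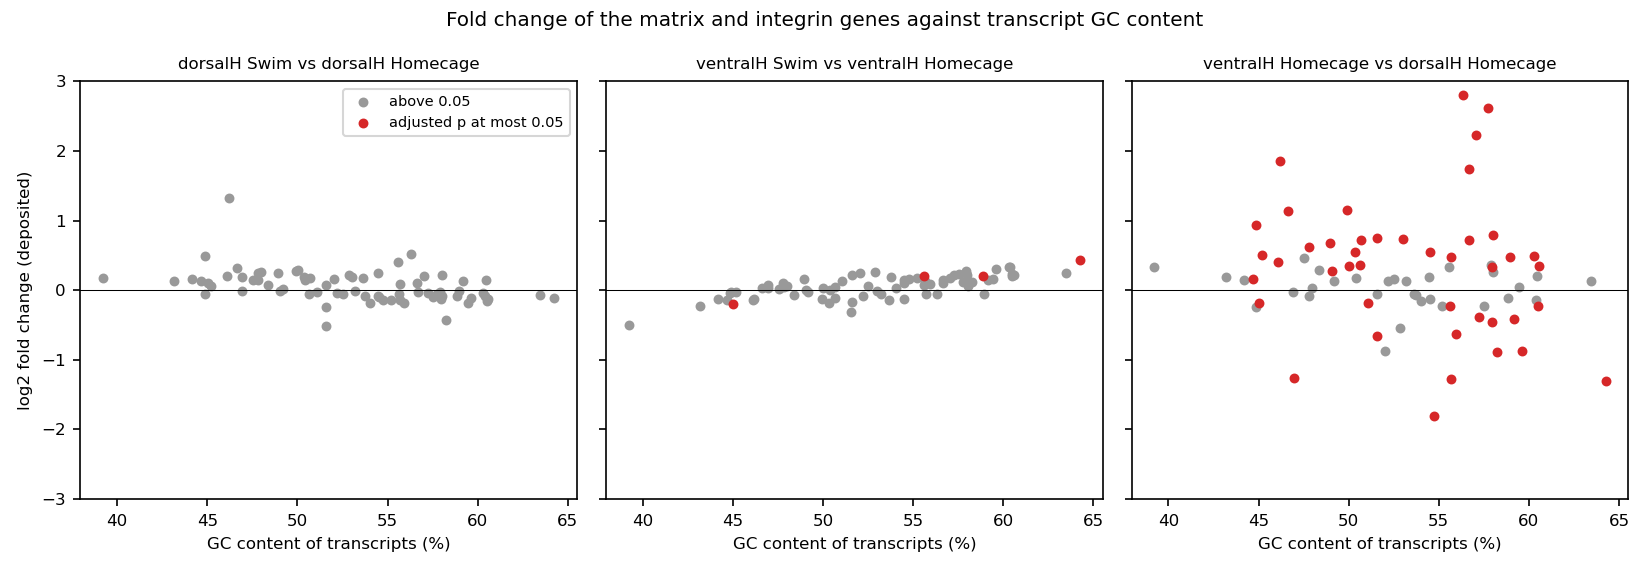
Deposited log2 fold change (y axis) against the percentage of G and C in the transcripts of a gene (x axis) for the matrix and integrin genes in dorsal Swim, ventral Swim and ventral over dorsal Homecage. Points slope down in dorsal Swim (rank correlation −0.50) and up in ventral Swim (0.69), and the 4 called genes of ventral Swim lose their call once that trend is subtracted.

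Other genes of the matrix pathway were called in several treatment tables of the authors. Of all genes, 0.125% to 0.616% were called in the whole and dorsal comparisons. In ventral hippocampus 0.856% were called after Handling, 2.39% after Restraint and 6.94% after Swim. The counts below are without subtraction of the GC trend. Of the CCN matricellular factors 1 of the 3 or 4 held was higher in each Restraint and Swim table. Of the proteases and inhibitors 3 of 16 were higher in ventral Restraint, 2 of 16 in whole Restraint and in ventral Swim, and 1 in each dorsal table. Of the 15 genes of collagen modification 3 were higher in ventral Handling, 2 in ventral Restraint and 1 in dorsal Restraint and in ventral Swim. Cyr61, a matricellular ligand of integrins and an immediate early gene, was higher in all 6 Restraint and Swim tables of the authors, by 1.00 to 1.94. In the authors' deposited tables of Handling it had 0.56 in whole, 0.49 in dorsal and 0.57 in ventral hippocampus and did not pass. Adamts1, a protease that cuts large proteoglycans, was called higher in 6 of the 9 authors' deposited tables, with 0.73 after ventral Restraint and 0.72 after dorsal Restraint. P4ha1, a subunit of the enzyme that hydroxylates collagen prolines, was called higher in ventral Handling (0.33), dorsal Restraint (0.25) and ventral Restraint (0.20) in the authors' deposited tables. In ventral Handling the authors' deposited table also calls P4ha2 (0.34), the collagen chaperone gene Serpinh1 (0.38) and the perlecan gene Hspg2 (0.37) higher. Fermt1, an integrin activator, was lower in ventral Restraint (−0.62) and ventral Swim (−0.79) in the authors' deposited tables.

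Whether a treatment acted differently in ventral and dorsal hippocampus was tested on the difference of the 2 deposited fold changes. After Handling 2 of 72 members passed (background 0.0889%), after Restraint 5 of 74 (background 1.98%) and after Swim 8 of 75 (background 10.2%). Col9a3 and Col4a4 differed after Handling, with 1.67 ± 0.31 and 1.95 ± 0.44 more in ventral hippocampus. Col8a1 and Col8a2 differed after Restraint, with −3.12 ± 0.77 and −2.28 ± 0.66. The pair Col4a1 and Col4a2 was at −0.15 and −0.22 in dorsal and at 0.17 and 0.20 in ventral hippocampus after Restraint, and the differences of 0.32 ± 0.09 and 0.42 ± 0.11 passed with adjusted p-values of 0.0196 and 0.0128 (normal test of the difference, Benjamini-Hochberg over all genes). With the GC trend subtracted, both Handling differences are still called (background 0.0817%) and 0 differences are after Restraint (background 0.0519%) or Swim (background 0.526%). The sizes of the Restraint differences of Col8a1 and Col8a2 changed little, to −3.05 and −2.45 with adjusted p-values of 0.0672 and 0.0760, while those of Col4a1 and Col4a2 became 0.25 and 0.15.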

How the data were processed

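Poly(A)-enriched RNA was sequenced from 60 libraries, 5 for each of 12 groups, and 10 tables of 2 groups each are used here. Per the file headers, the authors give for each gene the mean estimated count of either group over its libraries, unscaled. The fold change is the authors' ratio of the groups after their own scaling, per the file headers, and log2 is taken of that ratio in the deposited tables. The p-value and adjusted p are those of the authors' deposited test. Bowtie 0.12.2 and the assembly mm8 appear in the submitters' processing notes with no step assigned. Aligner, counting program, strand setting and test model are otherwise not given in the sources.

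The tables hold 13610 to 13784 genes after 144 to 148 repeated entries were dropped, and the Benjamini-Hochberg adjustment over all entries matched the deposited one. A gene is called at an adjusted p of 0.05. CPM divides a group mean by the group's total of estimated counts, and RPKM also by the exon length of GENCODE M21 on GRCm38, from which positions come too. The standard error is the absolute log2 fold change over the normal quantile of its p, and 95% intervals follow from it. Both take the deposited p as that of a 2-sided normal test, which is an assumption. The ventral minus dorsal effect was tested with both errors against a normal distribution, adjusted over all genes in both tables; whether equal numbers in both regions mark 1 mouse is not in the labels, and the test ignores it. The deposited p-values rest on the libraries of each group, which the series record gives as separate mice. How their spread enters is not known, as the test model is not given. The GC trend is a lowess curve (fraction 0.3) of log2 fold change on transcript GC content, known for at least 99.76% of genes, and its subtraction keeps the error. Python 3.11.15, pandas 2.3.3, scipy 1.17.1 and statsmodels 0.14.6 were used, and the tests were tried on simulated data.

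The members, gene lists and naming rule were chosen with earlier results of these data known. The rule names members called in a comparison (at most 20 by lowest p), the 4 of lowest p in each, 26 core genes, and called genes of the other lists, at most 4 per list; further genes named to complete a family, and the groups singled out for choroid plexus markers, were chosen after their values were seen. Alternatives were thresholds of 0.01 and 0.1, group means summing to at least 100, GC subtraction, total-count scaling and keeping repeated entries. 1 member is in the counts but is otherwise not reported here. Lists were described by counts and medians, without a test.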

Additional observations from a re-analysis of the deposited data

Results flagged for a closer look

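Effects that differed between ventral and dorsal hippocampus by the test of the difference itself are listed here as ventral minus dorsal log2 fold change. After Handling, Col9a3 differed by 1.67 and Col4a4 by 1.95. Both are still called with the GC trend subtracted. Choroid plexus markers differed in the same comparison, 4 of 10 called and a median of 2.06, and their part was not tested.

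After Restraint, Col8a1 differed by −3.12 and Col8a2 by −2.28, with choroid plexus markers at a median of −2.13 in the same comparison (2 of 8 called), and their part was not tested. Col11a2 differed by 0.75, Col4a1 by 0.32 and Col4a2 by 0.42. None of these 5 is called with the GC trend subtracted, where Col8a1 is at −3.05, Col8a2 at −2.45, Col11a2 at 0.31, Col4a1 at 0.25 and Col4a2 at 0.15.

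After Swim, Col20a1 differed by 0.54, Col11a2 by 0.55, Col4a2 by 0.39 and Col4a1 by 0.26. Itgb8 differed by −0.31, Itgb1 by −0.28 and Col4a3bp by −0.28. The share called among members, 8 of 75, is near the background of 10.2%, and 0 of the 8 is called with the GC trend subtracted.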

How the results depend on the processing

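No paired analysis was possible because the tables hold group means only, and for the same reason no library could be left out in turn. At an adjusted p of 0.01, 0 members were called in dorsal Restraint (background 0.286%) and 0 in ventral Swim (background 1.91%). At that threshold 1 was called in each of the Handling, Restraint and Swim differences between regions (backgrounds 0.0519%, 0.333% and 3.12%). At 0.1, 1 of 75 was called in dorsal Swim (1.33%, background 0.748%) and 2 of 76 in ventral Restraint (2.63%, background 3.54%). In ventral Swim it was 11 of 76 (14.5%, background 13.3%). Requiring group means that sum to at least 100 left 1 of 61 called in the Handling difference (background 0.0481%). It left 4 of 69 called in ventral Handling (background 0.806%). With the GC trend subtracted, 1 was called in dorsal Restraint (background 0.485%) and 0 in ventral Swim (background 1.03%). In the Restraint and Swim differences 0 were called (backgrounds 0.0519% and 0.526%). Col4a2 then turned to 0.032 between regions and Col11a2 to −0.0091 in the Swim difference. Of 69 gene results, another 23 lost their call under that subtraction, 30 at 0.01 and 5 under total-count scaling; the cause was not tested. Total-count scaling shifts a table by at most 0.041. Counts between ventral and dorsal Homecage ran from 33 to 47 over these settings, with 44 as reported. The 33 of 76 were at 0.01 (background 28.4%) and the 47 of 76 at 0.1 (background 45.6%). Members near the floor of the tables, such as Col4a3 and Col28a1, are held in 1 table only, so depth limits what can be said of them.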
